A study of Sus scrofa with 12 samples.

Results

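Transcripts of 8 genes that dividing cells use to copy their DNA and to pass through mitosis were followed in stented coronary arteries of the pig: CCNB1, CCNB2, CCNA2, CDK1, PCNA, TOP2A, BIRC5 and RRM2. The genes were chosen by name, and every probe set whose only symbol in the platform's annotation is one of these was taken. Of the 8 genes, 7 were represented, each by 1 probe set, among the 24123 probe sets of the array. No probe set carries CDK1 as its only symbol, so the kinase itself was not analysed here. CCNA2 was among the 30% of probe sets with the lowest mean level, so that its values are given without a place in the tests. The other 6 genes were tested among 16799 probe sets.

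The tissue came from Yorkshire farm pigs, collected 28 days after angioplasty and stent placement. The ZES group carried zotarolimus-eluting stents, the SES group sirolimus-eluting stents and the BMS group bare metal stents with no drug, and the series title speaks of overlapping stents for both drugs. Each group held 4 artery segments from 2 pigs, which gives 12 arrays from 6 pigs. Both segments of a pig carried the same stent type, so 2 pigs stand for each type. In 5 pigs the segments were the left anterior descending artery (LAD) and the right coronary artery (RCA), and in 1 pig of the SES group they were the left circumflex artery and the RCA. Segments are named by stent type and a number that carries no order: 1 and 2 are from the same pig, called the first of its group, and 3 and 4 are from the second. BMS 2, BMS 4, SES 4, ZES 2 and ZES 4 are LAD segments, SES 1 is the left circumflex segment, and all others are RCA segments. The sources used here give neither drug doses nor the ages of the pigs.

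Cyclin B, made from CCNB1 and CCNB2, and cyclin A, made from CCNA2, bind the kinase CDK1 and drive a cell through G2 into mitosis. TOP2A untangles the copied DNA strands, BIRC5 (survivin) belongs to the chromosomal passenger complex that guides chromosome attachment and cell division, PCNA clamps DNA polymerase to its template, and RRM2 is the small subunit of the enzyme that makes deoxynucleotides for S phase. These transcripts rise and fall with the cell cycle, and their level in a tissue is widely read as a gauge of dividing cells. Sirolimus binds FKBP12 and blocks the mTORC1 kinase, which slows the passage of vascular smooth muscle cells out of G1, and zotarolimus is a sirolimus analog that differs by a tetrazole group. In bulk tissue, fewer dividing cells and less of these RNAs per cell cannot be told apart.

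Levels are log2 signals of the Affymetrix porcine array. The background of an array was read from the 59 controls whose target had not been added to the sample, as their 95th percentile, and it lay between 4.19 and 5.16 in ZES arrays, between 4.15 and 5.39 in SES arrays and between 5.27 and 5.96 in BMS arrays. The tissue carried the markers of an artery wall: all 17 smooth muscle genes measured passed the filter, with a mean log2 level between 8.89 and 12.42 per array. Heart muscle genes were also seen, with 10 of the 16 measured passing the filter. The control probe sets for 28S ribosomal RNA stood apart in BMS 1 and ZES 2, at 14.57 and 14.10, against 6.95 to 10.74 on the other arrays, so results are also given without these arrays. That left-out pair was chosen after seeing the data.

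CCNB1, the major mitotic cyclin, was above background on 11 of the 12 arrays. Its log2 signal was 7.17, 6.29, 7.13 and 6.60 on the ZES arrays, 7.73, 6.59, 6.51 and 6.80 on the SES arrays and 5.93, 5.43, 8.57 and 7.12 on the BMS arrays. The BMS arrays held both the highest and the lowest values of all 12, and the drug-eluting arrays lay between them. BMS 1 was the array on which CCNB1 was not above background.

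CCNB2, the second B-type cyclin, had a log2 signal of 9.35, 7.68, 8.98 and 8.33 on the ZES arrays, 8.16, 8.85, 8.15 and 6.17 on the SES arrays and 1.12, 4.36, 8.66 and 7.64 on the BMS arrays. Both arrays of the first BMS pig were below every other array and not above background, while both arrays of the second BMS pig lay within the range of the ZES and SES arrays. CCNB2 spanned 8.23 log2 units over the 12 arrays, and PCNA 1.75.

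CCNA2, the A-type cyclin of S phase and G2, was near or below background nearly throughout. It was above background on 3 of the 12 arrays, ZES 3, ZES 4 and BMS 3. It was listed at 0, 4.14, 4.82 and 5.30 on the ZES arrays, at 0, 3.96, 3.96 and 1.45 on the SES arrays and at 1.45, 0, 5.83 and 4.11 on the BMS arrays. A value of 0 marks the floor of the scale, and each group had 1 array there.

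TOP2A was above background on all 12 arrays. Its log2 signal was 8.94, 6.68, 7.97 and 7.44 on the ZES arrays, 8.35, 8.74, 8.82 and 8.04 on the SES arrays and 7.61, 6.71, 9.72 and 8.89 on the BMS arrays. The SES arrays lay close together, and the ranges of the ZES and BMS arrays enclosed theirs. ZES 2 and BMS 2 held the lowest values and BMS 3 the highest.

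BIRC5, also above background on all 12 arrays, had a log2 signal of 8.36, 6.31, 9.39 and 8.68 on the ZES arrays, 8.32, 8.17, 8.87 and 7.74 on the SES arrays and 6.68, 7.37, 9.30 and 8.24 on the BMS arrays. ZES 2 and BMS 1 were the lowest, ZES 3 and BMS 3 the highest, and the 3 groups overlapped.

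RRM2 had a log2 signal of 7.67, 4.92, 7.49 and 7.62 on the ZES arrays, 7.92, 7.94, 7.84 and 6.04 on the SES arrays and 6.06, 3.14, 6.67 and 5.98 on the BMS arrays. The ZES and SES arrays lay above every BMS array apart from ZES 2 and SES 4, so that the groups overlapped through 1 array in each drug-eluting group. BMS 2 was the array on which RRM2 was not above background.

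PCNA, which also serves DNA repair, varied least of the 7 genes. Its log2 signal was 10.52, 9.63, 10.67 and 10.50 on the ZES arrays, 10.96, 11.05, 11.23 and 10.57 on the SES arrays and 9.47, 10.71, 10.96 and 10.65 on the BMS arrays. All 12 values were above background, and BMS 1 and ZES 2 were the only arrays below 10 on the log2 scale.

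**Figure D1:**
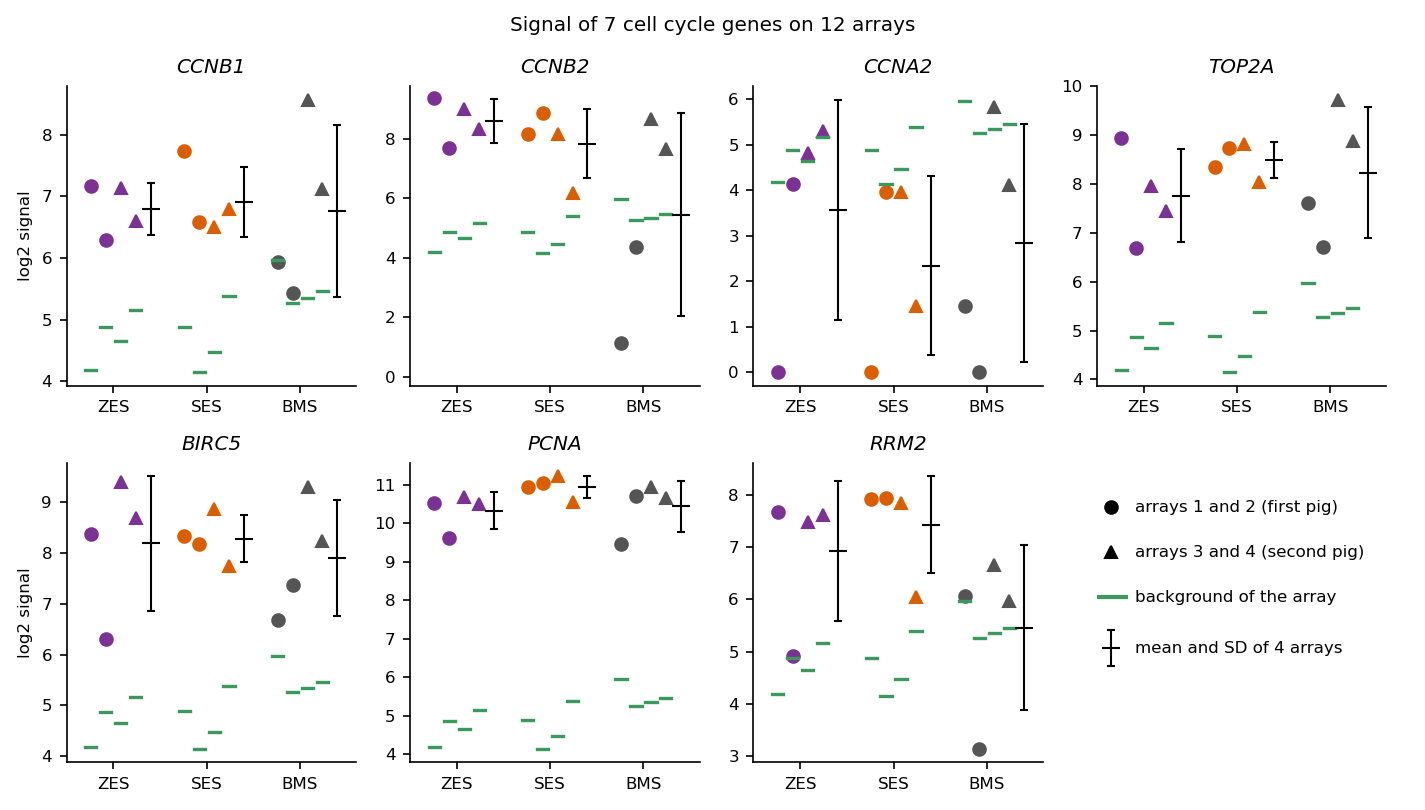
Log2 signal of the 7 measured genes (vertical axis, a scale of its own for each gene) on each array of the ZES, SES and BMS groups. Circles are arrays 1 and 2, triangles arrays 3 and 4, green dashes the background of each array, and crosses with bars the mean and SD of 4 arrays. In the BMS group the triangles stand above the circles for CCNB1, CCNB2, CCNA2, TOP2A and BIRC5, while in the ZES and SES groups the 2 pigs overlap for CCNB1 and TOP2A.

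The first comparison asks whether the sirolimus-eluting stent differed from the bare metal stent in these proliferation genes. RRM2 averaged 7.43 ± 0.93 in SES arrays and 5.46 ± 1.58 in BMS arrays (SD, n = 4 each), and CCNB2 averaged 7.83 ± 1.16 in SES arrays and 5.45 ± 3.42 in BMS arrays. None of the 6 genes passed the threshold (limma, Benjamini-Hochberg adjusted p under 0.05 over all probe sets), where 0.679% of all probe sets tested did. At an unadjusted p under 0.05 the count was 1, RRM2, where 7.33% of all probe sets were higher in SES. All 6 differences were above 0, with a median of 0.44 on the log2 scale, against a median of -0.020 over all probe sets.

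RRM2 was 1.97 log2 units higher in SES arrays (95% interval 0.25 to 3.70), a 3.93-fold difference with limma adjusted p = 0.269. The difference was 1.31 with a pseudocount of 32 and 1.20 without BMS 2, the array on which RRM2 was not above background. An exact two-sided permutation test over arrays gave p = 0.0857 for RRM2, where the smallest p that 70 arrangements allow is 0.0286. That test takes the 2 segments of a pig as independent, and the limma fit nearly does so too. Over means per pig, added after seeing the data, 6 arrangements allow no exact permutation p below 0.333. The CCNB2 difference was 2.39 (-0.066 to 4.84), with limma adjusted p = 0.362, and 2 of the 4 BMS arrays behind it were not above background. It was 0.87 without BMS 1 and 1.21 with a pseudocount of 32. CCNB1 differed by 0.15 (-1.22 to 1.52), TOP2A by 0.25 (-1.01 to 1.52), BIRC5 by 0.38 (-0.96 to 1.72) and PCNA by 0.50 (-0.24 to 1.24). The SD within the BMS group was larger than each of these 4 differences. Without BMS 1 and ZES 2, CCNB1 and BIRC5 were at -0.13 and -0.026, and again 0 genes passed.

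Markers of cell types in the wall had different means in the SES and BMS arrays as well. All 17 smooth muscle genes had lower means in SES arrays, with a median difference of -1.76, 0 past the threshold and 13 at an unadjusted p under 0.05, and the mean of the list ran from 8.89 to 11.49 in SES arrays and from 11.23 to 12.14 in BMS arrays. Of 10 T and NK cell genes tested, 9 had higher means in SES arrays, with a median of 1.79, 2 past the threshold and 5 at an unadjusted p under 0.05, and their mean ran from 6.58 to 7.81 in SES arrays and from 4.59 to 5.88 in BMS arrays. Over all probe sets 0.679% passed the threshold and 14.3% had an unadjusted p under 0.05, in either direction. Array controls moved with the groups too: the GAPDH control's 3' minus 5' signal, a sign of RNA degradation, was 3.66 ± 0.19 in ZES arrays, 2.71 ± 0.35 in SES arrays and 4.16 ± 0.50 in BMS arrays (SD, n = 4 each). The spike-in controls averaged 15.30 ± 0.58 in ZES arrays, 15.09 ± 0.43 in SES arrays and 16.30 ± 0.38 in BMS arrays. With the GAPDH difference as a covariate RRM2 stood at 3.63 and PCNA at -0.20 in SES minus BMS. In the same fit CCNB2 was at 0.54, BIRC5 at 0.036, CCNB1 at 0.82 and TOP2A at 0.92. The part of the cell make-up in the differences of the proliferation genes was not tested.

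The second comparison sets the zotarolimus-eluting stent against the bare metal stent. CCNB2 averaged 8.59 ± 0.73 in ZES arrays and 5.45 ± 3.42 in BMS arrays (SD, n = 4 each), and RRM2 averaged 6.93 ± 1.34 in ZES arrays and 5.46 ± 1.58 in BMS arrays. None of the 6 genes passed the threshold with limma, and neither did any other probe set (0%), although 1510 of the 16799 had an unadjusted p under 0.05. Of the 6 genes, 1 had an unadjusted p under 0.05, CCNB2, where 4.72% of all probe sets were higher in ZES. The differences were positive for 4 genes and negative for 2, with a median of 0.16, against -0.014 over all probe sets.

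CCNB2 was 3.14 log2 units higher in ZES arrays (0.69 to 5.59), an 8.81-fold difference with limma adjusted p = 0.451, and 2 of the 4 BMS arrays behind it were not above background. Without BMS 1 the difference was 1.62, and with a pseudocount of 32 it was 1.85. The exact permutation p over arrays was 0.114. RRM2 differed by 1.46 (-0.26 to 3.19), with adjusted p = 0.622 in limma. The RRM2 difference was 0.95 with a pseudocount of 32 and 0.69 without BMS 2, which was not above background. The other cyclin and the remaining genes lay near 0: CCNB1 at 0.035 (-1.34 to 1.41), TOP2A at -0.48 (-1.75 to 0.79), BIRC5 at 0.29 (-1.05 to 1.63) and PCNA at -0.12 (-0.85 to 0.62). These intervals leave room for differences of more than 1 log2 unit in CCNB1, TOP2A and BIRC5, so a null result at this size of experiment does not show equal levels. Of the cell type markers, 8 of 10 T and NK cell genes and 9 of 13 endothelial genes had higher means in ZES arrays and 14 of 17 smooth muscle genes lower ones, with medians of 1.12, 0.46 and -0.25, and their part in these differences was not tested.

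The third comparison sets the 2 drugs against each other, as eluted from their stents at doses not known here. PCNA averaged 10.33 ± 0.47 in ZES arrays and 10.95 ± 0.28 in SES arrays (SD, n = 4 each), and TOP2A averaged 7.76 ± 0.95 in ZES arrays and 8.49 ± 0.36 in SES arrays. None of the 6 genes passed the threshold with limma, where 0.0714% of all probe sets did, and 0 had an unadjusted p under 0.05. CCNB2 had a higher mean in ZES arrays and the other 5 genes a lower one, with a median difference of -0.31 against -0.022 over all probe sets. The 3 stent comparisons share their arrays by pairs and are no independent counts.

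PCNA differed by -0.62 (-1.36 to 0.12) between ZES and SES arrays, with limma adjusted p = 0.584. Its exact permutation p of 0.0571 was the smallest of the 21 such tests on the 7 genes. TOP2A differed by -0.73 (-2.00 to 0.54), CCNB2 by 0.75 (-1.70 to 3.21) and RRM2 by -0.51 (-2.23 to 1.21). CCNB1 differed by -0.11 (-1.48 to 1.26) and BIRC5 by -0.092 (-1.43 to 1.25). Each interval includes 0, and each reaches past 1 log2 unit on at least 1 side, so the 2 drugs cannot be called alike in these genes. Without BMS 1 and ZES 2, RRM2, BIRC5 and CCNB1 were at 0.16, 0.53 and 0.057, on the other side of 0.

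All 17 smooth muscle genes had higher means in ZES than in SES arrays, with a median of 1.67, 0 past the threshold and 12 at an unadjusted p under 0.05, and the mean of the list ran from 9.89 to 12.42 in ZES arrays and from 8.89 to 11.49 in SES arrays. Over all probe sets 10% had an unadjusted p under 0.05 in either direction. Of 13 endothelial genes 11 had higher means in ZES arrays, with a median of 0.73 and 0 past the threshold, and their mean ran from 7.46 to 8.14 in ZES arrays and from 6.81 to 7.02 in SES arrays. The part of these markers in the differences of the proliferation genes was not tested.

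Over the 3 stent types together, an F test in limma called none of the 6 genes, where 0.345% of all probe sets passed. The smallest adjusted p was that of CCNB2, at 0.338.

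**Figure D2:**
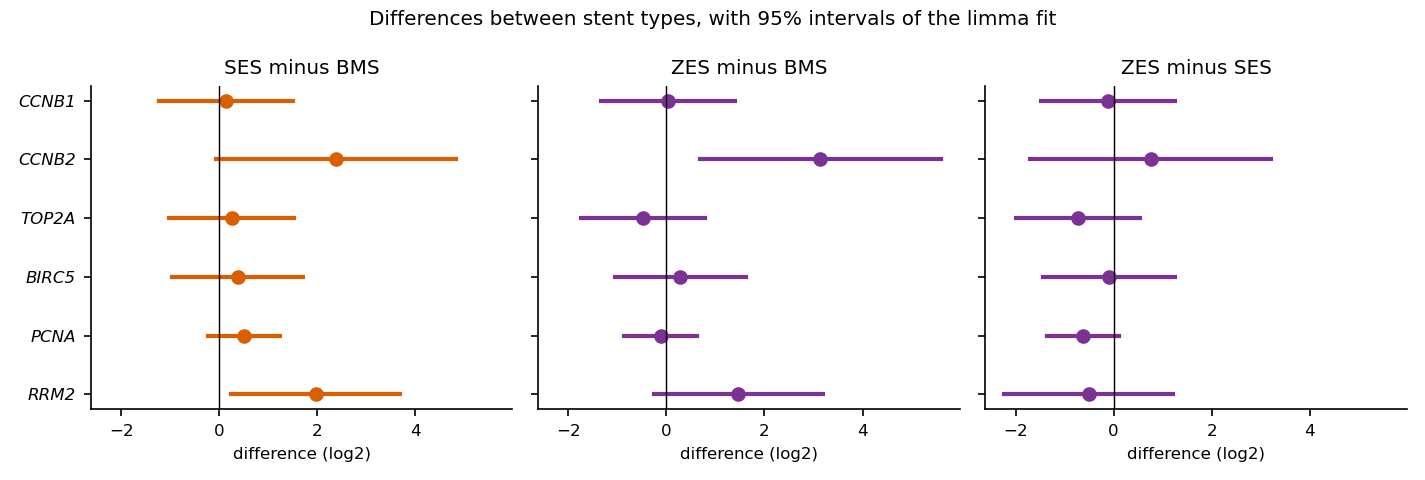
Difference in mean log2 signal (horizontal axis) for the 6 tested genes in SES minus BMS, ZES minus BMS and ZES minus SES, with the 95% intervals of the limma fit as bars and 0 as a vertical line. All points of SES minus BMS lie right of 0, and the interval clears 0 for RRM2 in SES minus BMS and for CCNB2 in ZES minus BMS, which did not pass the adjusted threshold.

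The spread of the BMS group followed the pig. The 2 arrays of the second BMS pig averaged 8.15 for CCNB2 and the 2 arrays of the first pig 2.74, a difference of 5.41 log2 units. Neither array of the first pig was above background for CCNB2, so the size of that difference is uncertain. CCNB1 averaged 7.84 in the second pig and 5.68 in the first, TOP2A 9.30 and 7.16, and BIRC5 8.77 and 7.02. For these 4 of the 6 tested genes both arrays of the second pig lay above both arrays of the first, which was so for 15.7% of all probe sets. RRM2 and PCNA differed by 1.72 and 0.71 in the same direction, with overlap between the pigs. CCNA2, which was not tested, had means of 4.97 and 0.73, and both of its arrays in the second pig lay above both in the first. Of these BMS arrays only BMS 3 was above background for CCNA2.

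The median pig difference of the 6 genes in the BMS group was 1.95 log2 units, against -0.098 over all probe sets, of which 4.26% were at or above 1.95. In the ZES group the same contrast, arrays 3 and 4 minus arrays 1 and 2, had a median of 0.32, and in the SES group of -0.31. BIRC5 was the only tested gene in the ZES group with both arrays of 1 pig above both of the other, at 9.04 for the pig of arrays 3 and 4 and 7.33 for the pig of arrays 1 and 2, where 17.1% of all probe sets were so placed. In the SES group CCNB2 averaged 7.16 in the pig of arrays 3 and 4 and 8.51 in the pig of arrays 1 and 2, and RRM2 averaged 6.94 and 7.93. For both genes each array of the second SES pig lay below each array of the first, as for 15.9% of all probe sets. With 2 pigs per group these differences have no test.

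The stent comparisons with BMS turned on which BMS pig was kept. Against the first BMS pig alone, CCNB2 was 5.09 log2 units higher in SES arrays (limma adjusted p = 0.00842) and 5.84 higher in ZES arrays (adjusted p = 0.00718), with 2.41% and 0.423% of all probe sets past the threshold in those fits. Both BMS arrays of those fits were from 1 pig and not above background for CCNB2. The sizes therefore rest on values below background, and the p-values take in no spread between BMS pigs. Against the second BMS pig alone, CCNB2 was at -0.32 in SES minus BMS and 0.44 in ZES minus BMS. CCNB1, TOP2A and BIRC5 were likewise at -0.94, -0.82 and -0.49 in SES minus BMS against the second pig, and at 1.23, 1.33 and 1.25 against the first. RRM2 kept a positive difference from BMS against either pig, 1.11 being its lowest value in SES minus BMS over 32 alternative settings and 0.60 its lowest in ZES minus BMS.

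The artery gave a contrast within pigs, since 5 pigs had both an LAD and an RCA segment with the same stent type. LAD segments had the lower mean for all 6 tested genes. None passed the threshold with limma, and neither did any other probe set (0%). The count at an unadjusted p under 0.05 was 2, TOP2A and RRM2, where 3.07% of all probe sets were lower in LAD. The median difference of the 6 genes was -0.73 log2 units, against 0.051 over all probe sets.

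TOP2A was lower in the LAD segment of each of the 5 pigs, with LAD minus RCA differences of -2.26 and -0.53 log2 units in the ZES pigs, -0.78 in the SES pig and -0.89 and -0.84 in the BMS pigs. LAD was the lower in every pig for 3.77% of all probe sets. The mean difference was -1.06 (-1.99 to -0.13), with limma adjusted p = 0.722. An exact two-sided sign-flip permutation test over the 5 pigs gave p = 0.0625, the smallest it can give.

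RRM2 was lower in the LAD segment of 4 of the 5 pigs, with differences of -2.75 log2 units in the first ZES pig, -1.80 in the SES pig and -2.93 and -0.69 in the BMS pigs, while the second ZES pig had a difference of 0.13. The mean was -1.61 (-3.05 to -0.17), with limma adjusted p = 0.723. BMS 2, the LAD array behind the difference of -2.93, was not above background for RRM2, so the size of that difference is uncertain. With the pseudocount used above the RRM2 mean was -0.999. BIRC5 averaged -0.85, CCNB1 -0.61, CCNB2 -0.42 and PCNA -0.16, each lower in LAD in 4 of the 5 pigs. At least 4 pigs had the lower value in LAD for 18.5% of all probe sets. The exception was the first BMS pig for BIRC5, CCNB2 and PCNA, the SES pig for CCNB1 and the second ZES pig for RRM2. CCNA2 was lower in the LAD segment of 3 pigs.

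LAD segments also had higher means for all 17 smooth muscle genes tested, with a median of 1.09, 0 past the threshold and 8 at an unadjusted p under 0.05, and for 9 of 10 heart muscle genes, with a median of 1.73 and 0 past the threshold. Over all probe sets 6.86% had an unadjusted p under 0.05 in either direction. Monocyte and macrophage genes had lower means in LAD in 11 of 13, with a median of -0.48. The part of these tissue differences in the artery contrast was not tested. Without BMS 1 and ZES 2, which removes the pairs of 2 pigs, TOP2A stood at -0.72 and RRM2 at -0.79.

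**Figure D3:**
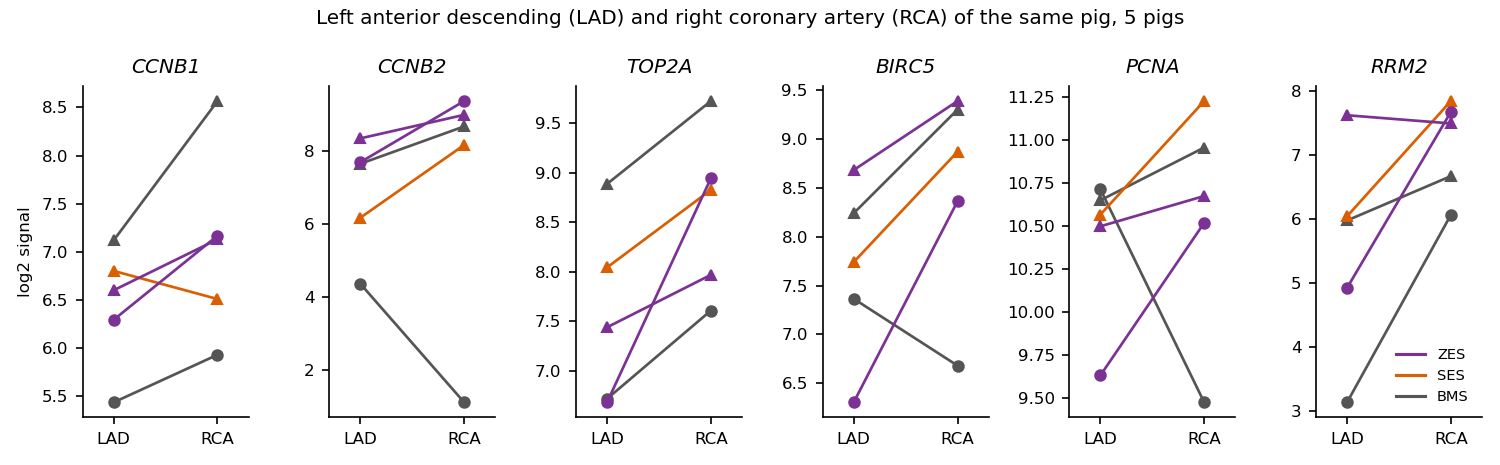
Log2 signal (vertical axis, a scale of its own for each gene) of the LAD and the RCA segment of the same pig, joined by a line, for 5 pigs and the 6 tested genes. Purple lines are ZES, orange SES and grey BMS pigs, circles arrays 1 and 2 and triangles arrays 3 and 4. All 5 TOP2A lines are lower at LAD, and the other genes have 1 line each that runs the opposite way.

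Seen array by array, the genes were low together on 3 arrays. Of the 6 tested genes, 5 were among the lowest 3 arrays on ZES 2, 5 on BMS 2 and 4 on BMS 1, and 4 were among the highest 3 arrays on BMS 3. Their mean log2 level was 6.92 on ZES 2, 6.29 on BMS 2 and 6.15 on BMS 1, against 7.56 to 8.98 on the other arrays. The 28S signal was high on ZES 2 and BMS 1, and on BMS 2 it was 9.67, inside the range of the others.

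The smooth muscle list was at its highest on ZES 2 and BMS 2, with means of 12.42 and 12.14, and on BMS 1 it was 11.78. It was lowest on SES 1, SES 2, SES 3 and ZES 1, between 8.89 and 9.89, where the 6 genes had means between 8.56 and 8.67. BMS 3 and BMS 4 had smooth muscle means of 11.29 and 11.23 and means of the 6 genes of 8.98 and 8.08. The macrophage list was lowest on ZES 2, at 9.98, and highest on BMS 3, at 11.31. It was 10.50 on BMS 1 and 10.09 on BMS 2, and 10.16 on SES 3, where the 6 genes had a mean of 8.57. The part of the cell make-up and of RNA quality in these array levels was not tested.

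**Figure D4:**
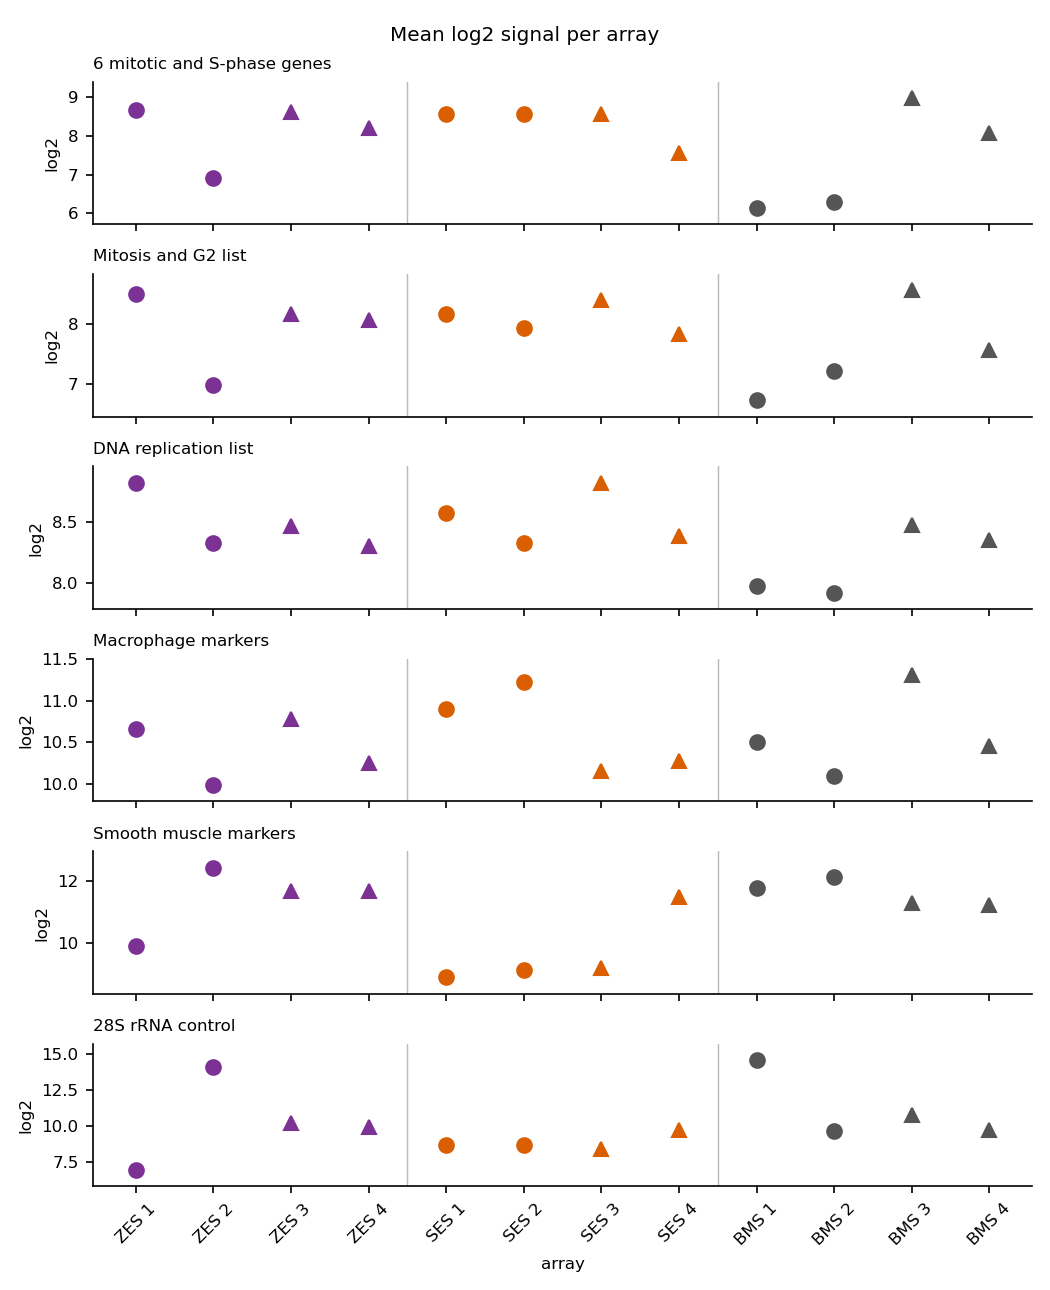
Mean log2 signal per array (vertical axes) of the 6 tested genes, of 2 cell cycle lists, of macrophage and smooth muscle markers and of the 28S ribosomal RNA controls, for the ZES, SES and BMS arrays. The 6 genes dip on ZES 2, BMS 1 and BMS 2, where the smooth muscle markers stand between 11.78 and 12.42, and 28S is high on ZES 2 and BMS 1.

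The genes varied together over the arrays. Pearson's r between pairs of the 6 tested genes ran from 0.42, for PCNA with RRM2, to 0.77, for PCNA with BIRC5, and CCNA2 had r between 0.12 and 0.42 with the others. BIRC5 followed the mean of the other genes most closely, at r = 0.86. These values describe 12 arrays that come from 6 pigs and share their scaling, and carry no test.

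The pathway around these genes was read from 4 lists that leave them out. Of 63 mitosis and G2 genes, 30 were measured and 27 tested. In SES minus BMS 22 differences were positive and 5 negative, with a median of 0.49. In ZES minus BMS 18 were positive and 9 negative, with a median of 0.40, and in ZES minus SES 8 were positive and 19 negative, with a median of -0.15. In LAD minus RCA 6 were positive and 21 negative, with a median of -0.52. None of the 27 passed in any of these comparisons with limma, and at an unadjusted p under 0.05 the counts were 3, 3, 0 and 2 in that order of comparisons. Over all probe sets the shares at that threshold were 14.3% in SES minus BMS, 8.99% in ZES minus BMS, 10% in ZES minus SES and 6.86% in LAD minus RCA, and the counts of each cell cycle list are to be read against them.

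CENPF, a kinetochore protein of G2 and mitosis, had the pattern of CCNB2, with a log2 signal of 9.98, 6.26, 7.15 and 6.90 on the ZES arrays, 8.90, 8.66, 8.79 and 6.28 on the SES arrays and 0.67, 3.12, 8.03 and 8.52 on the BMS arrays. The 2 arrays of the first BMS pig again lay below all others. Its difference in SES minus BMS was 3.07 (0.21 to 5.94), with limma adjusted p = 0.306, and 2 of the 4 BMS arrays behind it were not above background. With a pseudocount of 32 it was 1.55. DLGAP5, a spindle assembly protein, averaged 8.26 ± 0.97 in ZES arrays and 6.75 ± 1.18 in BMS arrays, a difference of 1.51 with adjusted p = 0.529 in limma.

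The kinetochore proteins NUF2 and SPC25 went the other way. NUF2 averaged 7.55 ± 0.79 in SES arrays and 8.87 ± 1.22 in BMS arrays, a difference of -1.32 with limma adjusted p = 0.301. SPC25 averaged 6.76 ± 0.68 in ZES arrays and 8.11 ± 0.80 in BMS arrays, a difference of -1.35 with adjusted p = 0.456 in limma. On BMS 1 and BMS 2, where CCNB2 and CENPF were at their lowest, NUF2 was at 8.97 and 10.38 and SPC25 at 8.67 and 8.88, the 2 highest values of each gene.

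Of 61 genes for DNA replication and nucleotide supply, 35 were measured and 29 tested, and none passed in any comparison with limma. The split was 17 positive to 12 negative in SES minus BMS and the same in ZES minus BMS, with medians of 0.18 and 0.19. In ZES minus SES it was 15 to 14, with a median of 0.036, and in LAD minus RCA 11 to 18, with a median of -0.15. At an unadjusted p under 0.05 the counts were 2, 4, 3 and 2 of 29, beside the shares of 14.3%, 8.99%, 10% and 6.86% over all probe sets.

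RRM1, the large subunit that pairs with RRM2, averaged 12.09 ± 0.90 in ZES arrays, 10.95 ± 0.54 in SES arrays and 10.83 ± 0.63 in BMS arrays. Its difference was 1.26 in ZES minus BMS (limma adjusted p = 0.424) and 1.15 in ZES minus SES (adjusted p = 0.357), while RRM2 had -0.51 in ZES minus SES. ORC6, a subunit of the origin recognition complex, averaged 8.79 ± 0.60 in SES arrays and 7.62 ± 0.49 in BMS arrays, with limma adjusted p = 0.199. FEN1, the flap endonuclease of lagging-strand synthesis, differed by 1.41 in ZES minus BMS, and DNMT1, the maintenance DNA methyltransferase, by 1.10 in ZES minus SES, with limma adjusted p = 0.451 and 0.396.

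Of 27 genes listed with the G1 cyclins, their kinases and E2F, 10 were measured and 9 tested, and none passed in any comparison with limma. The counts at an unadjusted p under 0.05 were 1, 1, 2 and 0 of 9, beside the same shares over all probe sets. Medians were 0.27 in SES minus BMS, 0.35 in ZES minus BMS, 0.0089 in ZES minus SES and -0.060 in LAD minus RCA. MYC, a transcription factor that drives entry into the cycle, had a log2 signal of 5.41, 3.83, 2.04 and 6.83 on the ZES arrays and 7.49, 7.73, 6.88 and 7.34 on the SES arrays. Every ZES array was below every SES array, which was so for 3.06% of all probe sets. The difference was -2.83 (-4.62 to -1.05), with limma adjusted p = 0.224, and 2 of the 4 ZES arrays behind it were not above background. With a pseudocount of 32 it was -1.59.

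MYBL2, a transcription factor of mitotic genes, averaged 7.60 ± 0.46 in ZES arrays and 5.85 ± 0.78 in BMS arrays, a difference of 1.75 with adjusted p = 0.448 in limma. With all MYBL2 probe sets averaged the difference was 0.65. LIN37, a subunit of the DREAM complex that binds cell cycle promoters, differed by 1.01 in ZES minus SES (limma adjusted p = 0.270), and by 0.32 with all its probe sets averaged. TFDP2, which pairs with E2F proteins on DNA, differed by 1.38 in SES minus BMS (adjusted p = 0.328 in limma), and by 0.66 without BMS 3.

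Of 30 genes that brake the cell cycle, 21 were measured and all 21 tested. In SES minus BMS 2 passed the threshold, both higher in SES, where 0.679% of all probe sets passed in either direction. None passed in the other comparisons, and at an unadjusted p under 0.05 the counts were 6 in SES minus BMS, 3 in ZES minus BMS, 2 in ZES minus SES and 1 in LAD minus RCA, of 21 genes each, beside 14.3%, 8.99%, 10% and 6.86% of all probe sets. Medians lay near 0, at 0.11, 0.030, -0.074 and -0.011.

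BTG2, an antiproliferative gene induced by p53 and by stress, had a log2 signal of 5.21, 6.58, 5.77 and 6.18 on the ZES arrays, 7.83, 8.09, 7.78 and 5.88 on the SES arrays and 3.39, 1.24, 2.51 and 3.94 on the BMS arrays. It was above background on every ZES and SES array and on 0 of the 4 BMS arrays, so its fold in SES over BMS is at least 3.69, with limma adjusted p = 0.0185. In ZES over BMS it is at least 1.34-fold, with adjusted p = 0.360 in limma. The SES call did not hold with the GAPDH 3' to 5' difference as a covariate (adjusted p = 0.715), with the level of the spike-in controls in the model (0.676), on means per pig (0.0548), without the pig of SES 1 and SES 2 (0.350), or without SES 1, SES 2 or SES 3 (0.0763, 0.0732 and 0.136).

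CCNG2, an atypical cyclin of arrested cells, had a log2 signal of 10.83, 9.88, 10.38 and 9.86 on the ZES arrays, 11.11, 11.28, 12.03 and 10.53 on the SES arrays and 8.10, 9.27, 9.86 and 9.99 on the BMS arrays. Every SES array was above every BMS array, which was so for 4.23% of all probe sets, and the ZES arrays overlapped both other groups. The SES minus BMS difference was 1.93 ± 0.42 (SE), with limma adjusted p = 0.0437, and the call was lost in 20 of 32 alternative settings, among them without BMS 1 (0.0939), without SES 3 (0.219) and without BMS 1 and ZES 2 together (0.119).

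CDKN2B, the inhibitor p15 of the G1 kinases CDK4 and CDK6, averaged 3.12 ± 1.95 in SES arrays and 6.41 ± 0.55 in BMS arrays, a difference of -3.29 with limma adjusted p = 0.123. It was above background on 1 of 4 SES arrays and 4 of 4 BMS arrays. CHEK2, a checkpoint kinase, averaged 9.20 ± 1.35 in ZES arrays and 7.31 ± 0.92 in BMS arrays, a difference of 1.88 with adjusted p = 0.424 in limma.

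**Figure D5:**
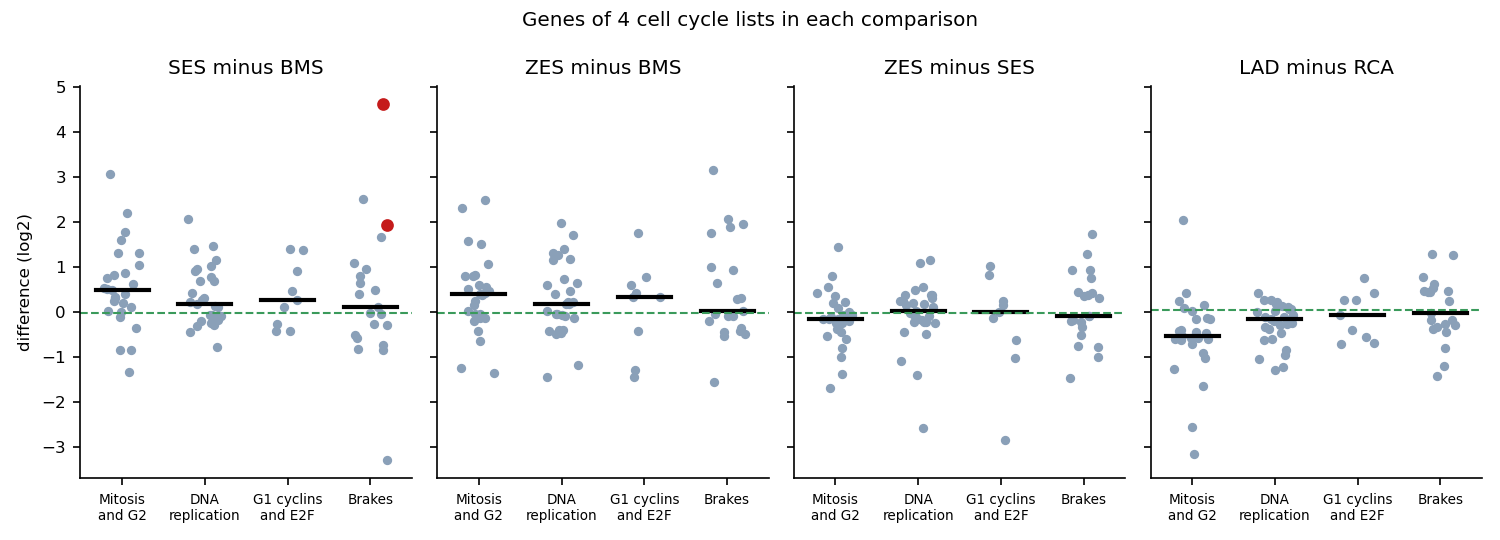
Difference in mean log2 signal (vertical axis) for the tested genes of 4 cell cycle lists in SES minus BMS, ZES minus BMS, ZES minus SES and LAD minus RCA. Each point is a gene, black bars are list medians, the green dashed line is the median of all probe sets, and red points are the 2 genes past the threshold, BTG2 and CCNG2. The mitosis and G2 medians stand at 0.49 and 0.40 against BMS and at -0.52 in LAD minus RCA.

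The pattern of each of 5793 named genes, which include the 6 tested ones, was compared with the mean of the 7 measured genes over the 12 arrays. Outside the set, the most similar were ASAP1 (Pearson r = 0.92), HMGB2 (0.91), PTTG1 (0.90), GOT1 (0.90), UBE2A (0.90), STMN1 (0.89), PLK3 (0.89), EIF4A1 (0.88), SCIN (0.88) and SPI1 (0.88). HMGB2, a chromatin protein, PTTG1, the securin that delays the parting of sister chromatids until anaphase, and STMN1, which takes microtubules apart, are on the mitosis and G2 list, and PLK3 is on the list of brakes. PTTG1 had a log2 signal of 7.40, 5.94, 8.18 and 8.30 on the ZES arrays, 7.23, 8.24, 8.36 and 6.97 on the SES arrays and 4.74, 5.90, 7.97 and 6.94 on the BMS arrays. ZES 2, BMS 1 and BMS 2 were again its 3 lowest arrays. The correlations are the highest of many, over arrays that share pigs and scaling, and are given as a description.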

How the data were processed

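Total RNA of stented coronary artery tissue was measured on Affymetrix porcine arrays. The deposited values are log2 signals of the authors; the submitters' processing notes name MAS5 and Affymetrix Expression Console 5.0, and any further step is not given in the sources used here. Low signals are listed down to 0. No values were renormalised, and the number of arrays limits the precision.

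The 124 control probe sets and the 30% of probe sets with the lowest mean were removed, which left 16799. The stent types were fitted together over all 12 arrays in R 4.3.3 (limma 3.58.1 with statmod 1.5.0), with the pig as a random block (within-pig correlation -0.0322) and a variance trend. The LAD minus RCA fit used the pig as a fixed term. P-values are two-sided and Benjamini-Hochberg adjusted over all probe sets, with a threshold of 0.05 and 95% intervals. They measure the spread between segments of 2 pigs per stent type. The within-pig correlation is shared by all probe sets and is small, so the stent fits take the segments of a pig as nearly independent. For genes whose level followed the pig, such as CCNB2 in the BMS group, these p-values and intervals do not take in that dependence. Every gene of the set is named. From each cell cycle list up to 4 genes with the smallest p in any stent comparison are named, as well as the 10 genes of most similar pattern. Where a list gene had several probe sets, the 1 with the highest mean over all 12 arrays was used. Where every array of the dimmer group is below background, the fold is a lower bound: each dim array is set to its background or its own signal, whichever is higher, and the difference between the group means of the log2 values is turned into a fold. The genes and lists were chosen with earlier results of these data known. The procedure was run on simulated data with independent arrays, no pig effect and no floor of low signals. That run cannot check how the fit handles pigs or values near the floor. The alternatives covered the filter, a pseudocount, normalization, the pig block, the variance trend, array weights, covariates and left-out arrays and pigs. Promoter windows and sequences were not used here.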

Additional observations from a re-analysis of the deposited data

Results flagged for a closer look

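In 9 of 69 groups of 4 arrays, over the measured genes and the named genes of the lists, 1 array stood so far from the other 3 that its gap exceeded the 95% critical value of Dixon's test; chance gives about 5%, and groups that share an array are not independent. Of the proliferation genes, PCNA was 9.63 on ZES 2 against 10.50 to 10.67 on the other ZES arrays, RRM2 was 4.92 on ZES 2 against 7.49 to 7.67, and RRM2 was 6.04 on SES 4 against 7.84 to 7.94 on the other SES arrays. ZES 2 and SES 4 are LAD segments.

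Of the list genes, CENPF was 6.28 on SES 4 against 8.66 to 8.90 on the other SES arrays, and BTG2 was 5.88 there against 7.78 to 8.09. SPC25 was 7.77 on ZES 2, above the 6.35 to 6.56 of the other ZES arrays. FEN1 was 8.68 on ZES 4 against 9.79 to 10.01 on the others. RRM1 was 9.89 on BMS 2 against 11.09 to 11.18, and TFDP2 was 4.97 on BMS 3 against 7.57 to 8.08 on the other BMS arrays.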

How the results depend on the processing

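Under the alternatives, 137 counts of genes called were as reported. The other 3, for SES minus BMS, ZES minus BMS and the F test, were 1 (CCNB2) without the pig of BMS 3 and BMS 4; over all single arrays and pigs left out they ranged from 0 to 1. Of the differences of the 6 genes, 599 kept direction and side of the threshold and 47 turned direction without passing it, while CCNB2 passed in the 2 comparisons with BMS named above. With arrays or pigs left out, the lowest and highest values were -0.94 and 1.23 (CCNB1), -0.82 and 1.33 (TOP2A), -0.49 and 1.25 (BIRC5) and -0.32 and 5.09 (CCNB2) in SES minus BMS. In ZES minus BMS they were -1.05 and 1.12 (CCNB1), -1.55 and 0.60 (TOP2A), -0.59 and 1.16 (BIRC5) and -0.47 and 0.24 (PCNA). In ZES minus SES they were -0.36 and 0.16 (CCNB1), -0.94 and 0.76 (BIRC5) and -1.14 and 0.16 (RRM2), and for PCNA in LAD minus RCA -0.51 and 0.024. CENPF in SES minus BMS ranged from -0.12 to 6.26, the highest value without the pig of BMS 3 and BMS 4 and past the threshold (limma adjusted p = 0.00660). For CENPF, as for CCNB2, both BMS arrays left in that fit were from 1 pig and not above background. CCNB1 in ZES minus BMS was -0.048 with a pseudocount of 32, -0.064 with median centring and -0.078 without BMS 1 and ZES 2. BIRC5 in ZES minus SES was 0.17 with array weights, 0.13 with the GAPDH covariate and 0.53 without BMS 1 and ZES 2. PCNA in SES minus BMS was -0.20 with the GAPDH covariate. Without BMS 1 and ZES 2, CCNB1 and BIRC5 in SES minus BMS were -0.13 and -0.026, and CCNB1 and RRM2 in ZES minus SES 0.057 and 0.16. Apart from left-out arrays, whose own construction gives fewer samples, the cause was not tested. Array weights brought CDKN2B in SES minus BMS (adjusted p = 0.0376) and MYC in ZES minus SES (0.0439) past the threshold in limma, as did leaving out SES 4 for CDKN2B (0.0261). SES 4 was the only SES array above background for CDKN2B, so the SES values left in that fit were all below background. For the stent types, no paired analysis was possible because the replicate numbers follow the order of the samples and pair nothing across stents; LAD and RCA were paired within pigs. Averaging the probe sets of a gene changed none of the 7 genes, which have 1 probe set each. Of the list genes, it lowered FEN1 and MYBL2 in ZES minus BMS to 0.70 and 0.65. DNMT1 and LIN37 in ZES minus SES fell to 0.18 and 0.32. Signal over background limits CCNA2 most, above background on 2 of 4 ZES, 0 of 4 SES and 1 of 4 BMS arrays, and in BMS arrays also CCNB2 (2 of 4), CCNB1 and RRM2 (3 of 4 each).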
